A study of Rattus norvegicus with 12 samples.

Results

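The simple epithelial keratins are the keratins of single-layered epithelia, and 5 genes were chosen by symbol as members: Krt7, Krt8, Krt18, Krt19 and Krt20. Of these, 4 matched a row of the gene table, which held 30208 genes in all, 20455 of them with reads. Krt19 was not analysed here, since no row carried its symbol. The data were RNA sequencing of whole rat kidney in 12 libraries, 4 from each of 3 groups. The sham group served as control. Cardiopulmonary bypass, in which a machine takes over the work of heart and lungs, was given to the CPB group without nitrite and to the CPB+Nitrite group with it. The labels give no strain, age, dose, duration or time of sampling, so none of these can be set beside the results. They do not say whether the replicates of a group came from separate animals, and every p-value below measures the spread between these samples, which may be technical.

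Keratins are intermediate filament proteins that assemble only as pairs of a type II and a type I chain. Among the members, Krt7 and Krt8 encode type II chains, and Krt18, Krt19 and Krt20 encode type I chains. Krt8 and Krt18 form the base pair of simple epithelia, and a chain without its partner is usually degraded. In the kidney these keratins are best known from the collecting duct, the distal nephron and the urothelium (the lining of the renal pelvis), whereas Krt20 is best known from intestinal epithelium and the surface cells of the urothelium. Keratins of this group are widely described as stress proteins of epithelial cells, and Krt8, Krt18 and Krt20 have been described in injured renal tubules.

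The type II members lie on chromosome 7 of the build mRatBN7.2. Krt7 (ENSRNOG00000008057) spans chr7:132528895-132545052 on the plus strand, and Krt8 (ENSRNOG00000009779) spans chr7:133124203-133131728 on the minus strand. Krt18 (ENSRNOG00000047393), although a type I gene, lies next to Krt8 at chr7:133157475-133161166 on the plus strand. Krt20 (ENSRNOG00000027139) lies in the type I cluster of chromosome 10, at chr10:84384802-84394107 on the minus strand. Each of the 4 is annotated as protein-coding.

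Promoter sequence was read for the 3 members that the RefSeq promoter table of the build GRCr8 held, Krt8, Krt18 and Krt20. The stretches below are shown because the neighbours Krt8 and Krt18, whose products pair, differ in the motif letters they hold. Each runs 5′ to 3′ on the strand of its gene, from 60 bases before the matched motif to 20 after it, with the motif in capitals. Krt8 is chr7:135010418-135010505 on the minus strand, Krt18 is chr7:135036024-135036109 on the plus strand, and Krt20 is chr10:84890309-84890394 on the minus strand.
Krt8: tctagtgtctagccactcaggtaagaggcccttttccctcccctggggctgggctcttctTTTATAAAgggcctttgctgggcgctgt
Krt18: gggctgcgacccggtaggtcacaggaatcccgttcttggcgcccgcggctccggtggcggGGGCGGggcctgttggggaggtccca
Krt20: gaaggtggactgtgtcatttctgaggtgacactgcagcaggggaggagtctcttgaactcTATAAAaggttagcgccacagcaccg
The letters TATAAA were found 104 to 99 bases before the RefSeq start of Krt8 and 49 to 44 bases before that of Krt20. Whether they act as a core promoter element at these distances was not tested. In Krt8 they overlap a match on the other strand, at 106 to 101 bases. The letters GGGCGG, a GC box of the kind Sp1 binds, were found 84 to 79 bases before the start of Krt18. On both strands of the 250 bases before the start, TATAAA occurs in 12.9% and GGGCGG in 30.5% of 33469 promoters. The AP-1 letters TGANTCA (6.34% of promoters) and the STAT letters TTCNNNGAA (7.67%) were not in the 250-base windows of these 3 genes.

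Library totals ran from 16.84 to 25.78 M estimated reads (M, mega), and levels are given as counts-per-million (CPM) after scaling by TMM factors. The members differ in depth: the reads per library were 4725 to 14028 for Krt7, 3371 to 19638 for Krt8, 395 to 3948 for Krt18 and 0 to 553 for Krt20. RefSeq also lists pseudogenes of Krt8 and Krt18, and how reads were split between near-identical copies was not tested, so the counts of these genes are uncertain to that extent. Estimated counts that were not whole numbers (tolerance 1e-06) do not mark such genes, since they occurred in 12 of 12 libraries for Krt7 and Krt8, 6 for Krt18, 1 for Krt20 and in 33.1% of all non-zero values. Libraries sham 1 and CPB+Nitrite 2 stood apart in their cell markers. In CPB+Nitrite 2, 8 markers of collecting duct principal cells summed to 4550 CPM, against 1240 to 1550 CPM in the other 3 of its group, and 7 markers of the thick ascending limb and distal tubule to 761 CPM, against 5130 to 9070 CPM. In sham 1, 5 smooth muscle genes summed to 541 CPM, against 47.2 to 84.3 CPM in the other 3 sham libraries, adipocyte genes to 398 CPM, against 61.8 to 146 CPM, and urothelial markers to 183 CPM, against 3.34 to 57.4 CPM. Sham 1 was also the highest sham library for each of the 4 keratins. No lengths were used, so levels are compared for 1 gene between libraries and never between keratins.

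All 4 measured keratins had a higher mean after bypass, although for Krt20 the rise came from CPB 1 and CPB 2 alone. In CPB against sham the log2 change was 0.75 for Krt7, 1.15 for Krt8, 1.43 for Krt18 and 4.16 for Krt20, each past an adjusted p of 0.05 in edgeR's quasi-likelihood test (Benjamini-Hochberg over the 14664 genes tested). This count of 4 of 4 stands against a background in which 21.7% of all genes were called higher in the same comparison, and 43.2% were called in either direction. For Krt8 and Krt18, which makes 2 of 4 members, every CPB library lay above every sham library, while 23.5% of all genes had groups separated in that direction and 48.2% in either. The median change of the 4 was 1.29, and that of all genes tested was -0.05. Because the members and the gene lists below were chosen with earlier results of these data known, such comparisons with all genes are descriptions only. In bulk tissue, more keratin-expressing cells and more keratin RNA per cell cannot be told apart.

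Krt7, the type II keratin of ducts and urothelium, stood at 346, 200, 263 and 228 CPM in sham libraries 1 to 4. In CPB libraries 1 to 4 it stood at 455, 439, 306 and 542 CPM. The groups overlapped, since sham 1 lay above CPB 3. The mean rose from 259 ± 63.1 to 435 ± 97.5 CPM (SD, n = 4 each), a log2 change of 0.75 (SE 0.28, 95% interval 0.14 to 1.36; edgeR adjusted p = 0.047). This was the smallest change among the 4 and the nearest to the threshold.

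Krt8, the general type II keratin of simple epithelia, stood at 254, 177, 207 and 163 CPM in the sham libraries. In the CPB libraries it stood at 646, 548, 267 and 314 CPM. The groups did not overlap, but CPB 3 lay just above sham 1, and CPB 1 and 2 were well above CPB 3 and 4. Relative to the sham mean, the CPB libraries held 3.23, 2.74, 1.33 and 1.57 times as much. The mean rose from 200 ± 40.2 to 443 ± 182 CPM (SD, n = 4 each), which is 2.22-fold in the fit (95% interval 1.21 to 4.06; edgeR adjusted p = 0.0362).

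Krt18, the type I partner of Krt8, stood at 43.2, 19.2, 39.9 and 19.1 CPM in sham. It stood at 93.4, 77.2, 73.0 and 83.2 CPM in CPB. Here the CPB libraries lay close together, the highest being 1.28 times the lowest, and all were above the sham libraries, whose highest was 2.26 times the lowest. The mean rose from 30.3 ± 13.0 to 81.7 ± 8.83 CPM (SD, n = 4 each), a 2.69-fold change in the fit (95% interval 1.42 to 5.09; edgeR adjusted p = 0.0178).

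Krt20, a type I keratin of restricted distribution, was at or near the floor in most libraries. Sham libraries 1 to 4 held 32, 9, 1 and 0 reads, and the CPB libraries held 553, 134, 4 and 5 reads. In CPM these were 1.19, 0.362, 0.0409 and 0 for sham and 21.8, 7.23, 0.227 and 0.335 for CPB. A count of 0 allows up to 3 reads, or 0.145 CPM in sham 4, for counting error only. The change came from CPB 1 and CPB 2, at 54.8 and 18.1 times the sham mean, whereas CPB 3 and CPB 4 lay below the sham mean and within the sham range. The log2 change of 4.16 passed the test (edgeR adjusted p = 0.0348), but its 95% interval of 1.03 to 7.30 was wide. Without CPB 1 it was 2.66 with an adjusted p of 0.142. The same 2 libraries, CPB 1 and CPB 2, were also the highest of their group for Krt8.

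**Figure D1:**
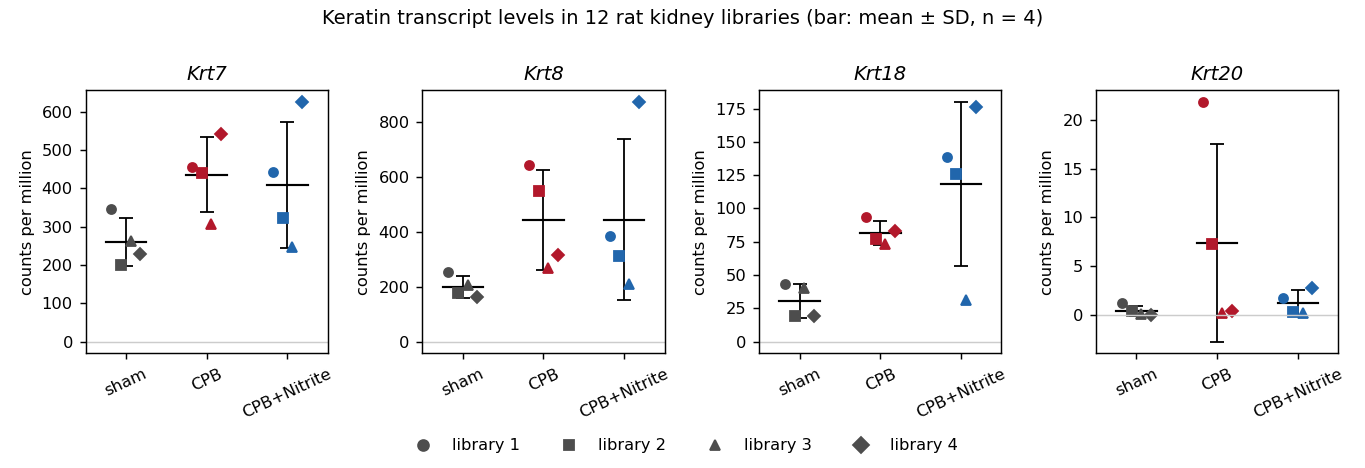
Level of each keratin in the 12 libraries, in counts-per-million on a linear axis, by group; symbols mark the library number and the bars give the mean ± SD of 4 libraries. Krt18 in CPB lies between 73.0 and 93.4 CPM, above every sham library, while Krt20 is high in CPB 1 (21.8 CPM) and CPB 2 (7.23 CPM) and below 3 CPM in the other 10.

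The calls in CPB against sham depended on which libraries were kept, for Krt18 less than for Krt7, Krt8 and Krt20. Each of the 4 changes kept its positive sign whichever library was left out. Without sham 1, which stood apart, all 4 kept their calls, with log2 changes of 0.92 for Krt7 (adjusted p = 0.0362), 1.28 for Krt8 (0.0481), 1.65 for Krt18 (0.022) and 5.68 for Krt20 (0.0311). Krt18 held its call in 10 of 12 such fits and lost it without sham 2 (adjusted p = 0.0537) or sham 4 (0.0507). Krt8 ranged from 0.92 to 1.33 in log2 change and lost its call without sham 2 (0.0855), sham 3 (0.0645), sham 4 (0.0865), CPB 1 (0.0951) or CPB 2 (0.083). Krt7 ranged from 0.63 to 0.92 and lost its call without sham 2 (0.125), sham 3 (0.0806), sham 4 (0.105), CPB 1 (0.0771), CPB 2 (0.0799) or CPB 4 (0.123). Krt20 lost its call without CPB 1 as above and without sham 2 (0.0806), sham 3 (0.0766), sham 4 (0.0762) or CPB 2 (0.0578). When libraries were scaled by total counts alone, which lowers the median change of all genes from -0.05 to -0.24, Krt7 (0.56, adjusted p = 0.104) and Krt8 (0.98, adjusted p = 0.0643) no longer passed. That scaling called 2281 of 6550 genes higher, against 3184 of 6332 with TMM factors. With only sham and CPB in the edgeR fit, the adjusted p was 0.00829 for Krt7, 0.00433 for Krt8 and 0.00104 for Krt18. Krt20 was not tested there. That fit called 7873 of 14153 genes. Limma voom gave an adjusted p of 0.00351, 0.00398 and 0.00064 for the same 3 keratins and 0.0793 for Krt20. It called 8997 of 14664 genes. All other p-values here are edgeR's, and all are adjusted by Benjamini-Hochberg.

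**Figure D2:**
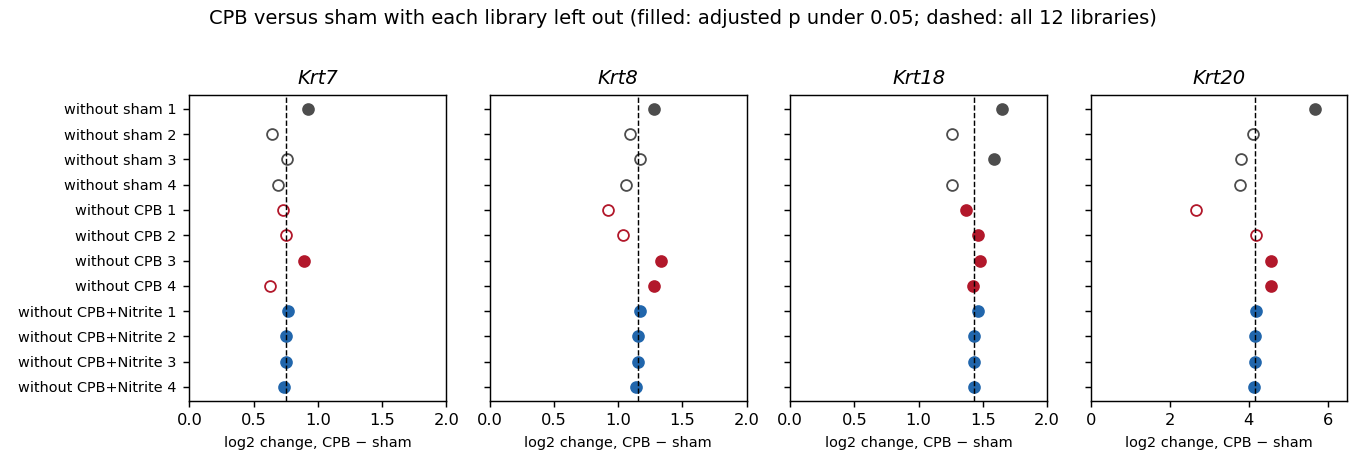
Log2 change of each keratin in CPB against sham (x axis) when the library named on the y axis is left out; filled points passed an adjusted p of 0.05, and the dashed line is the value from all 12 libraries. The points stay right of 0 throughout, and leaving out CPB 1 moves Krt20 from 4.16 to 2.66.

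The balance of the members within a library was compared as the log2 ratio of each to Krt8, which does not depend on library scaling. For Krt18 to Krt8 the log2 ratio was -2.55, -3.21, -2.38 and -3.09 in sham, -2.79, -2.83, -1.87 and -1.92 in CPB, and -1.47, -1.31, -2.74 and -2.31 in CPB+Nitrite. The groups overlapped in each comparison. The mean ratio was 0.46 higher in CPB than in sham (exact two-sided permutation p = 0.229, adjusted 0.467) and 0.85 higher in CPB+Nitrite than in sham (exact permutation p = 0.114, adjusted 0.4). For Krt7 to Krt8 the mean was 0.36 ± 0.14 in sham and 0.04 ± 0.58 in CPB (SD, n = 4), with the ratio low in CPB 1 (-0.51) and CPB 2 (-0.32) and high in CPB 4 (0.79). That difference of -0.33 had an exact permutation p of 0.343 (adjusted 0.467). None of the 7 ratio tests passed after adjustment. The lowest unadjusted exact permutation p was 0.0857, for Krt7 to Krt8 in CPB+Nitrite against sham. The smallest p that 4 libraries against 4 can give is 0.0286. After adjustment over 7 tests, a single ratio at that p could not pass. These tests therefore do not show an unchanged balance.

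In CPB+Nitrite the keratins spread widely. Krt7 stood at 441, 322, 246 and 624 CPM in libraries 1 to 4, and Krt8 at 385, 311, 209 and 873 CPM. Krt18 stood at 139, 126, 31.3 and 176 CPM. Krt20 stood at 1.77, 0.293, 0.147 and 2.76 CPM, from 42, 8, 3 and 62 reads. For all 4 members library 4 was the highest of the group and library 3 the lowest, and library 3 lay within the sham range for each. The highest library was 4.18 times the lowest for Krt8 and 5.6 times for Krt18, against 2.42 and 1.28 times in CPB.

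Adding nitrite to bypass addressed whether it changes the response of the kidney to bypass. Against CPB alone, none of the 4 keratins passed the test in CPB+Nitrite, and none had an unadjusted p under 0.05. The background in this comparison was 0.0% of all genes called by edgeR, although 4315 genes had an unadjusted p under 0.05, and no member was called by DESeq2, which called 14.7% of its genes, or by limma voom, which called 0.00682%. The log2 change was -0.09 for Krt7 (95% interval -0.70 to 0.51), 0.00 for Krt8 (-0.86 to 0.87), 0.53 for Krt18 (-0.37 to 1.43) and -2.58 for Krt20 (-5.44 to 0.28). The groups overlapped for each of the 4, whereas 12.7% of all genes had groups that did not. For Krt8 the interval leaves room for a change of 1.82-fold up or to 0.551 of the CPB level, so the test does not show equal levels. Without CPB+Nitrite 2, the library that stood apart, the values were 0.01 for Krt7, 0.14 for Krt8, 0.50 for Krt18 and -2.25 for Krt20. Without CPB+Nitrite 4 they were -0.37, -0.56, 0.27 and -3.32. Krt20 rested mostly on CPB 1: without that library its change was -1.10 (adjusted p = 0.581), and it was -1.63 with the replicate block and -0.98 under limma voom.

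Against sham, Krt18 rose in CPB+Nitrite and the other 3 did not pass. This 1 of 4 stands beside 3.85% of all genes called higher, 0.955% called lower and 4.81% called in either direction. DESeq2 called 2 of 4 members and 14.5% of its genes, and limma voom 3 of 4 and 19.6%. Krt18 was 118 ± 61.5 CPM in CPB+Nitrite and 30.3 ± 13.0 CPM in sham (SD, n = 4 each), a log2 change of 1.96 (SE 0.43, edgeR adjusted p = 0.0376). CPB+Nitrite 3 lay inside the sham range and the other 3 libraries lay above it, at 4.15 to 5.79 times the sham mean. Of the 12 fits that leave out 1 library, Krt18 was called without sham 3 (adjusted p = 0.0437), CPB+Nitrite 2 (0.0244) or CPB+Nitrite 3 (0.000961), and without any of the other 9 libraries its adjusted p lay between 0.0507 and 0.131 (0.0817 without sham 1). Krt7 had a log2 change of 0.65 (adjusted p = 0.155), Krt8 of 1.15 (0.0976) and Krt20 of 1.58 (0.48). Without CPB+Nitrite 3, Krt7 (0.83, adjusted p = 0.0437) and Krt8 (1.39, 0.0252) also passed. Without CPB+Nitrite 4, Krt8 fell to a log2 change of 0.59 (0.326). Both comparisons with sham use the same 4 sham libraries, so their values are not independent of each other.

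**Figure D3:**
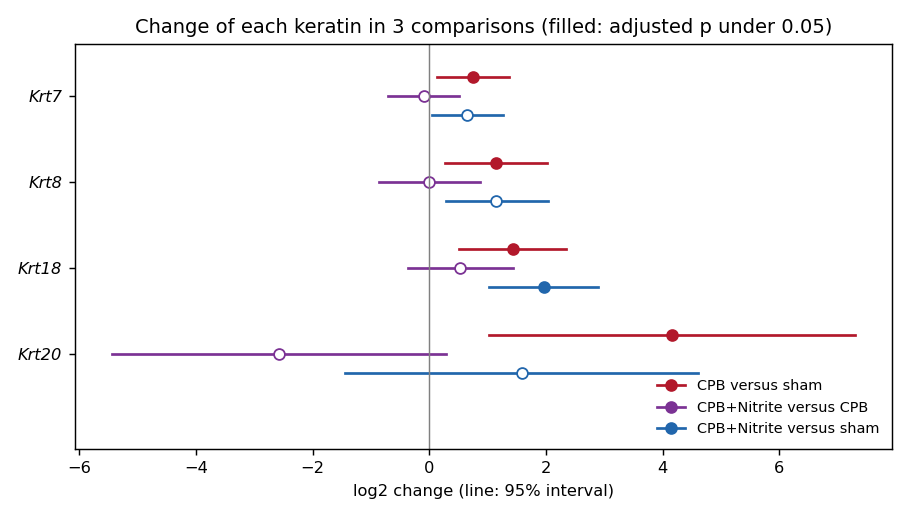
Log2 change of each keratin in the 3 comparisons, with lines for the 95% interval and filled points for an adjusted p under 0.05 (edgeR, all 12 libraries in 1 fit). All 4 keratins are filled in CPB versus sham, Krt18 alone in CPB+Nitrite versus sham, and none in CPB+Nitrite versus CPB, where each interval includes 0.

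The order of the group means was sham lowest for every member. Krt7 was 259 ± 63.1 CPM in sham, 408 ± 165 in CPB+Nitrite and 435 ± 97.5 in CPB (SD, n = 4). Krt8 was 200 ± 40.2, 445 ± 295 and 443 ± 182 CPM in the same order of groups, and Krt20 was 0.399 ± 0.553, 1.24 ± 1.25 and 7.41 ± 10.2 CPM. For Krt18 CPB+Nitrite (118 ± 61.5 CPM) stood above CPB (81.7 ± 8.83). The difference between CPB and CPB+Nitrite was within the spread of the libraries for each of the 4.

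Genes that tie keratin filaments to the cell surface also moved with bypass. Of 14 desmosome and keratin-linker genes tested, 8 were higher and 2 lower in CPB than in sham, with a median log2 change of 0.77 against -0.05 over all genes. The shares called over all genes were 21.7% higher and 21.5% lower. Without sham 1 the counts were 8 and 1, beside 2567 higher and 2455 lower of 14813 genes. Dsp, the desmoplakin that anchors keratin filaments in desmosomes, rose from 164 ± 16.3 to 285 ± 45.8 CPM (SD, n = 4). Plec, the plectin that cross-links intermediate filaments, rose from 137 ± 25.1 to 431 ± 137 CPM. Eppk1, an epiplakin that binds keratin bundles, rose from 8.31 ± 6.4 to 83.5 ± 29.4 CPM. Dsc2, a desmosomal cadherin, rose with a log2 change of 1.52. The fallers were Evpl (envoplakin, -1.69) and Tchp (trichoplein, a keratin-binding protein, -0.68). Each of these 6 had an edgeR adjusted p of 0.0203 or less. In CPB+Nitrite against sham 2 of 14 were higher, beside 3.85% of all genes. Against CPB 0 of 14 passed in edgeR, 4 had an unadjusted p under 0.05, and DESeq2 called 1 higher and 1 lower. Over all genes edgeR called 0.0%, 4315 of 14664 had such a p, and DESeq2 called 14.7% in either direction. These counts therefore do not set the list apart. Eppk1 stood at 20.9 ± 18.2 CPM in CPB+Nitrite (log2 change against CPB -2.0, adjusted p = 0.0928).

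Of 8 epithelial junction genes, 6 rose in CPB and 0 fell, with a median log2 change of 0.91. Beside this, 21.7% of all genes were called higher and 43.2% in either direction. Cdh1, which encodes E-cadherin, rose from 127 ± 20.7 to 365 ± 115 CPM (SD, n = 4; log2 change 1.52). Cldn4 and Cldn7, claudins of tight junctions, rose by 1.96 and 1.37 on the log2 scale, and Epcam, an epithelial adhesion molecule, rose by 0.88. These 4 had an edgeR adjusted p of 0.00503 or less. Ocln (0.26, adjusted p = 0.193) and Cdh16 (-0.22, adjusted p = 0.419) did not pass. In CPB+Nitrite against sham 3 of 8 were higher, beside 3.85% of all genes. Against CPB 0 of 8 passed in edgeR or DESeq2, and 0 had an unadjusted p under 0.05. Over all genes edgeR called 0.0% and DESeq2 14.7%, and 4315 of 14664 had such a p in edgeR.

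Of 19 transcription factors listed as regulators of simple keratin genes, 14 rose and 1 fell in CPB, with a median log2 change of 1.49. Of all genes, 21.7% were called higher and 21.5% lower. Fosl2, an AP-1 subunit, rose from 44.2 ± 26.6 to 269 ± 98.9 CPM (SD, n = 4). Klf5 and Klf4, zinc finger factors of epithelia, rose by 2.21 and 2.01 on the log2 scale, and Grhl2, a grainyhead factor of epithelial genes, rose from 14.7 ± 1.27 to 29.5 ± 4.47 CPM. Sp1, which binds GC boxes, rose by 0.87 (edgeR adjusted p = 0.0147). Tfcp2l1, a factor of collecting duct cells, fell from 373 ± 76.6 to 193 ± 17.8 CPM. Fosl2, Klf5, Klf4, Grhl2 and Tfcp2l1 had an edgeR adjusted p of 0.00687 or less. In CPB+Nitrite against sham 10 of 19 were higher, beside 3.85% of all genes. Against CPB 0 of 19 passed in edgeR or DESeq2, and 1 had an unadjusted p under 0.05. The shares over all genes were 0.0% for edgeR and 14.7% for DESeq2, and 4315 of 14664 had such a p in edgeR. Beside the same 21.7% of all genes, 8 of the 10 tubular injury genes were higher in CPB and 0 lower, with a median of 2.23. Among them Havcr1, which encodes kidney injury molecule 1, was 721, 35.5, 22.6 and 275 CPM in CPB+Nitrite libraries 1 to 4, against 4.18 to 26.5 CPM in sham and 585 to 1110 CPM in CPB. Library 3, the lowest for the keratins, was thus within the sham range for Havcr1 as well, and library 4, the highest for the keratins, was not the highest for Havcr1.

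Other intermediate filament genes did not move as a group. Of 9 tested, the 3 lamin genes rose in CPB and 0 fell, with a median log2 change of -0.10. These 3 calls among 9 genes stand beside 21.7% of all genes called higher and 43.2% called in either direction. The count therefore does not set the list apart. Lmna, the nuclear lamin A/C gene, rose from 117 ± 22 to 283 ± 78.6 CPM (SD, n = 4; log2 change 1.27, edgeR adjusted p = 0.01), Lmnb1 by 1.58 (adjusted p = 0.00574) and Lmnb2 by 0.58 (0.0191). Vim, the vimentin of mesenchymal cells, had a sham mean of 68.7 ± 35.9 CPM and a CPB mean of 80.5 ± 15.9 CPM (log2 change 0.23, adjusted p = 0.652). Lmna was also the gene whose level over the 12 libraries was most like that of Krt8 among 12457 genes searched, with a Pearson r of 0.968. Lmna stood at 356, 341, 193 and 241 CPM in CPB and at 256, 174, 150 and 472 CPM in CPB+Nitrite, so that CPB 1 and 2 and CPB+Nitrite 4 were the highest 3 libraries, as for Krt8.

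The genes next most like Krt8 were Eepd1 (r = 0.959) and Srsf3 (0.949). Those most like Krt7 were Ddx51 (0.944), Actr5 (0.933) and Gpr39 (0.932). For Krt18 they were Aig1 (0.970), Rcn1 (0.969) and Tuba1a (0.968), and for Krt20 Bles03 (0.914), Depdc7 (0.888) and Mcm7 (0.877). Among the members, r was 0.879 for Krt7 with Krt8, 0.854 for Krt7 with Krt18 and 0.828 for Krt8 with Krt18. Krt20 had r of 0.846 with Krt8, 0.673 with Krt7 and 0.567 with Krt18. These are descriptions over 12 libraries that share groups, depth and scaling. They were computed on log2 CPM, and each includes the difference between groups.

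Markers of the cells best known for these keratins were in part lower in CPB. The 8 tested urothelial markers all had negative log2 changes in CPB against sham, with a median of -3.39, and 4 of the 8 passed, where 21.5% of all genes were called lower. Without sham 1, 0 of the 8 passed, where 2455 of 14813 genes were called lower. Their summed level was 183, 57.4, 25.1 and 3.34 CPM in sham, 13.4, 4.26, 11.3 and 14.7 CPM in CPB, and 126, 274, 19.7 and 48.5 CPM in CPB+Nitrite. Sham 4 lay below all CPB libraries, and Psca, a surface antigen found in urothelium, made up 258 of the 274 CPM in CPB+Nitrite 2. The uroplakin genes Upk2 and Upk3a, which define urothelium, were at 0 in sham 4 and CPB 2, and Upk1b was at 0 in CPB 2, where a count of 0 allows up to 0.162 CPM. Other urothelial markers were detected in CPB 2, with Upk1a at 0.486 CPM and Psca at 3.4 CPM. Across the alternatives 0 to 7 of the 8 were called lower. DESeq2 called 6 lower, and 3401 of its 16791 genes. Limma voom called 1 lower, and 4649 of its 14664 genes.

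The principal cell markers of the collecting duct were lower in CPB for 3 of 8 genes and higher for 0, with a median log2 change of -1.0. Over all genes, 21.5% were called lower and 21.7% higher. Without sham 1, 2 were lower, as were 2455 of 14813 genes in that fit. Limma voom called 5 lower and 1 higher, where it called 4649 of 14664 genes lower and 4348 higher. Hsd11b2, the enzyme that shields the mineralocorticoid receptor from glucocorticoids, fell from 256 ± 92.6 to 98.7 ± 21.2 CPM (SD, n = 4). Avpr2, the vasopressin receptor, fell from 21.5 ± 3.7 to 3.6 ± 1.02 CPM, and Aqp3, a water channel, fell by 1.15 on the log2 scale (edgeR adjusted p 0.00391, 0.00655 and 0.0306 in this order). Scnn1g, a subunit of the epithelial sodium channel, had a mean of 67.3 ± 16.6 CPM in sham and 100 ± 25.7 CPM in CPB (log2 change 0.58, adjusted p = 0.107), and Fxyd4, a sodium pump regulator, had a log2 change of -0.01 (0.992). The summed level of the 8 was 1300 to 1850 CPM in sham and 645 to 1080 CPM in CPB, while the summed keratins were 396 to 644 CPM in sham and 645 to 1220 CPM in CPB. The 8 markers summed to 1240 to 4550 CPM in CPB+Nitrite. Against CPB, 7 of the 8 had a positive log2 change there, with a median of 1.59. In edgeR 0 of 8 passed and 6 had an unadjusted p under 0.05, beside 0.0% of all genes called and 4315 of 14664 with such a p. DESeq2 called 5 higher, and 14.7% of its genes in either direction. In CPB+Nitrite 2, where principal cell markers were highest, the keratins summed to 760 CPM, and in CPB+Nitrite 4, where keratins were highest at 1670 CPM, the principal cell markers summed to 1550 CPM. Of the other marker lists, 3 of 7 intercalated cell, 3 of 8 proximal tubule, 3 of 7 thick ascending limb and distal tubule, 2 of 6 adipocyte and 4 of 5 smooth muscle genes were lower in CPB, and 0 of 5 podocyte genes passed. Each count stands beside the same 21.5% of all genes called lower, and the lists are short. Without sham 1 these counts of lower genes were 1, 3, 3, 0 and 1, in the same order, beside 2455 of 14813 genes. Of 5 medullary osmolyte genes, 1 was higher and 1 lower in CPB, beside 21.7% and 21.5% of all genes. They summed to 161 to 449 CPM in sham, 382 to 721 CPM in CPB and 278 to 1730 CPM in CPB+Nitrite. The 1 mesothelium gene tested did not pass. The part of these cell types in the keratin changes was not tested.

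**Figure D4:**
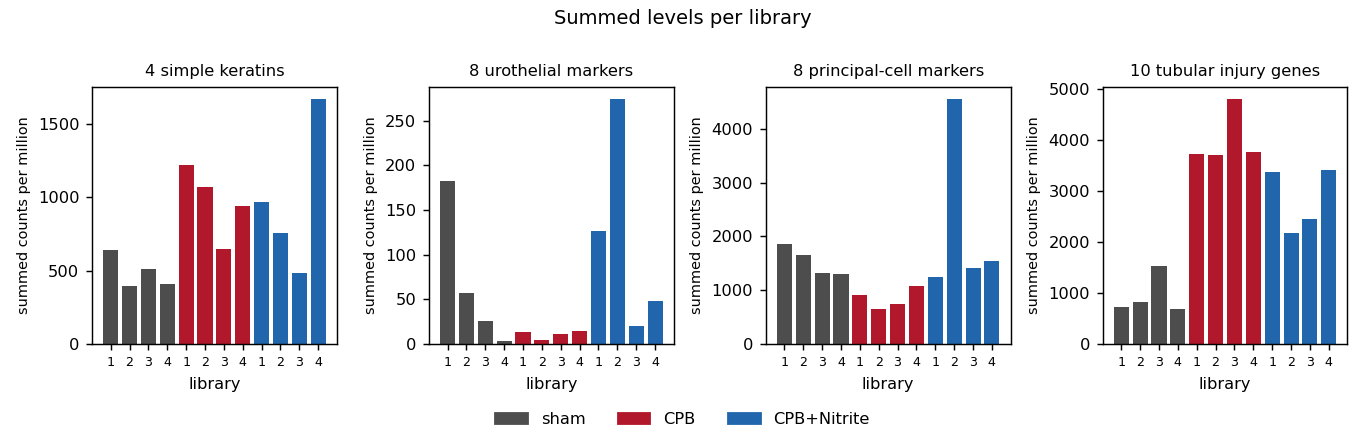
Summed CPM in each library for the 4 simple keratins, 8 urothelial markers, 8 principal cell markers and 10 tubular injury genes, with bars from 0 and colours for the groups. The keratin sum is 645 CPM or more in every CPB library, while the urothelial sum is 14.7 CPM or less there and the principal cell sum 1080 CPM or less.

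The other keratins, mostly of skin, hair and stratified epithelia, did not pass in edgeR. Of 33 with a row, 6 had enough reads to test. In CPB against sham 0 of 6 were called by edgeR, with a median log2 change of -0.70. Of all genes, 43.2% were called in either direction and 21.5% lower, and a list of 6 is short. An unadjusted p under 0.05 was reached by 2 of 6, and by 7719 of all 14664 genes. DESeq2 called 1 of the 6 lower, and 3401 of its 16791 genes. Limma voom called 3 lower, and 4649 of its 14664 genes. Krt80 had a sham mean of 57.8 ± 19.5 CPM and a CPB mean of 54.7 ± 24.9 CPM (SD, n = 4; log2 change -0.08, adjusted p = 0.884). Krt5, a basal-cell keratin, held 458, 15, 2 and 0 reads in sham and 14, 0, 0 and 2 in CPB (log2 change -4.50, adjusted p = 0.0771). Means in sham and CPB were 5.29 ± 0.619 and 3.25 ± 0.912 CPM for Krt10 and 5.06 ± 1.41 and 3.11 ± 0.74 CPM for Krt23. For Krt17 they were 0.543 ± 0.768 and 0.938 ± 0.805 CPM (SD, n = 4 each). Across the alternatives 0 to 3 of the other keratins were called lower and 0 higher.

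The row named Krt16 needs care in reading because of its span. It covers chr10:85066802-85171799 with 10 transcripts, a length of 104.998 kb, and the row of Krt9 lies inside it. In the gene order of RefSeq, Krt15, Krt19, Krt9, Krt14 and Ka11 lie between Krt13 and Krt16, and of these Krt9 alone had a row. Which of these genes gave the reads of that row cannot be told from the table. It stood at 275, 139, 97.2 and 64.1 CPM in sham, 117, 64.2, 46.7 and 48.3 CPM in CPB and 248, 97.9, 122 and 112 CPM in CPB+Nitrite. The groups overlapped, and the log2 change in CPB against sham was -1.06 (edgeR adjusted p = 0.0727). This row therefore did not follow the 4 measured members, and no value for Krt19 is taken from it.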

How the data were processed

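RNA of 12 rat kidney samples was sequenced from strand-specific libraries, per the labels' protocols. The submitters' processing notes name bcl2fastq 2.19, cutadapt 1.18, Salmon 1.2.1, R 3.5.1 and the build mRatBN7.2, without order or options. The authors deposited estimated counts per gene, which were rounded to whole numbers here. They also deposited a scaled signal table, which supplied symbols and coordinates only. Genes were kept by filterByExpr (minimum count 10), which left 14664 genes. All 12 libraries entered 1 edgeR 4.0.16 fit (R 4.3.3; TMM factors 0.887 to 1.114; quasi-likelihood test, two-sided; Benjamini-Hochberg over all genes tested; threshold 0.05), checked on simulated counts. With 9 residual degrees of freedom, the number of libraries limits the precision. The members and lists were chosen with earlier results of these data known. Named genes were all members, the uroplakins and the 6 other keratins of highest level. Per list they were up to 4 genes with the smallest p in CPB versus sham and up to 2 in CPB+Nitrite versus CPB. Not every list gene picked this way is named above. The 3 genes most like each member were also named (Pearson r of log2 CPM, prior count 2, mean of at least 2 CPM). Cdh16, Tchp, Tfcp2l1, Vim, Scnn1g and Fxyd4 fell outside this rule and were named after their values were seen. Ratios used exact permutation tests; Krt20 to Krt8 was tested in 1 comparison, since sham 4 had 0 reads. Promoters came from RefSeq (GRCr8) and matched 3 of 4 members. The alternatives run were RLE factors (median of ratios), total counts, 2 other filters, a replicate block, only the groups compared, limma 3.58.1 voom, DESeq2 1.42.0 and each library left out.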

Additional observations from a re-analysis of the deposited data

How the results depend on the processing

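In CPB versus sham 4 members were called, with 2 under total counts alone and 0 to 4 with 1 library left out. In CPB+Nitrite versus sham 1 member (Krt18) was called, with 0 under the replicate block, 0 with only the groups compared, 3 under limma voom, 2 under DESeq2, and 0 to 3 with 1 library left out. In CPB+Nitrite versus CPB 0 were called under every alternative run. There the sign of values near 0 turned: Krt7 was 0.01 under total counts alone and 0.04 under limma voom, and Krt8 was -0.01 with RLE factors, -0.02 with no filter, -0.07 with the replicate block and -0.02 under DESeq2. Leaving out 1 library gave -0.37 to 0.08 for Krt7, -0.56 to 0.24 for Krt8, 0.27 to 0.84 for Krt18 and -3.32 to -1.10 for Krt20. The cause of these changes was not tested. Every member kept a positive log2 change in both comparisons with sham under the alternatives run. Krt7 also lost its call in CPB versus sham with no filter (adjusted p = 0.0518) and with a mean of at least 2 CPM (0.0543), and Krt20 under limma voom (0.0793). Krt20 had no value with only sham and CPB fitted, since it did not pass the filter. The replicate block kept all 4 calls in CPB versus sham. Same-numbered libraries deviated together in 3 of 12 pairs (r over 0.1; range -0.107 to 0.381), so the numbers were not taken as pairing. Over all genes, calls ranged from 4692 to 8997 in CPB versus sham (6332 in the fit reported), 0 to 2865 in CPB+Nitrite versus CPB (0) and 0 to 2976 in CPB+Nitrite versus sham (705). Depth limits Krt20, which had 5 reads or fewer in 5 libraries. No ratio test passed with 1 CPM added to each level. With the replicate block none could pass, since the smallest p of its sign-flip test is 0.125.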
